A study of Mus musculus with 8 samples.

Results

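The transforming growth factor beta (TGF-beta) ligands, their latent binding proteins and their receptors were followed through RNA sequencing of mouse ventricular heart tissue. The 10 genes were chosen by name (Tgfb1, Tgfb2, Tgfb3, Ltbp1, Ltbp2, Ltbp3, Ltbp4, Tgfbr1, Tgfbr2 and Tgfbr3), and all 10 were among the 13677 genes of the deposited table and passed its filter on low values. By its title the series sets Vhl-deficient against wild-type ventricles, with Cre driven by Wt1, which marks the epicardium, the outer cell layer of the heart. There were 3 libraries labelled C, 2 labelled KO and 3 labelled DKO. The labels do not spell out these names, the second change in DKO, the strain or the age of the mice, the Vhl alleles, or whether each library is 1 animal. Vhl encodes the protein that marks hypoxia-inducible factors (HIF) for destruction when oxygen is present. Wt1 is active in the epicardium, whereas ventricular RNA comes from all cells of the tissue.

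TGF-beta ligands are made with a propeptide that holds them inactive. In most cells the latent complex is bound to a latent TGF-beta binding protein (LTBP), which fixes it to fibrillin and fibronectin in the matrix, from which integrins or proteases release the ligand. The free ligand binds the type II receptor (Tgfbr2), which phosphorylates the type I receptor (Tgfbr1), which in turn activates Smad2 and Smad3. Betaglycan (Tgfbr3) is a co-receptor that presents ligand, above all TGF-beta 2, to the type II receptor. In the heart the pathway is known for its part in epicardial cell migration, valve formation and the activation of fibroblasts.

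In the libraries labelled KO 3 of the 10 genes rose against C, and none fell: the ligand gene Tgfb2, the matrix gene Ltbp2 and the receptor gene Tgfbr2. Over all 13544 tested genes 6.90% were called higher, 7.01% lower and 13.9% in either direction in that comparison (limma, Benjamini-Hochberg adjusted p under 0.05). In DKO none of the 10 passed against C, where 0.155% of all genes were called (0.0738% higher and 0.0812% lower). Against KO, 3 of the 10 were lower in DKO, Tgfb2, Ltbp2 and Tgfbr1, and none was higher, where 5.73% of all genes were called lower and 6.08% higher. All comparisons reuse libraries: KO versus C and DKO versus C share the C libraries, and DKO versus KO and KO versus C share the KO libraries.

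Sequence upstream of these genes was read from RefSeq (build GRCm38.p6), which held 12 promoter windows for 8 of the 10 genes. Windows for the 3 genes that rose and for Tgfb1, the most abundant ligand gene, are shown because the study alters Vhl: capitals mark the letters ACGTG or GCGTG on either strand, the core of the HIF binding motif. Each window is the 250 bases before the RefSeq start, on the strand of the gene. The Ltbp2 window reaches 41 bases into the gene as annotated by GENCODE, and its first 234 bases are printed.
Tgfb2, chr1:186705990-186706239, minus strand: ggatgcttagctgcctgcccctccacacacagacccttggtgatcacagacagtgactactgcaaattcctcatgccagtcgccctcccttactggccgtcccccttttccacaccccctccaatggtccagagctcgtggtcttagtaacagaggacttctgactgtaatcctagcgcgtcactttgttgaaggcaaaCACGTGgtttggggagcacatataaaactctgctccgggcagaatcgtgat
Ltbp2, chr12:84876508-84876741, minus strand: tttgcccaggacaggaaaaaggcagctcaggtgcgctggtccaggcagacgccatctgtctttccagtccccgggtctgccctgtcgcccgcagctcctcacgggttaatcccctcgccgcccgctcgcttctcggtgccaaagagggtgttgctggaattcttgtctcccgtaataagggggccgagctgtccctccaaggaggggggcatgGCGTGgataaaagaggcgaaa
Tgfbr2, chr9:116175364-116175613, minus strand: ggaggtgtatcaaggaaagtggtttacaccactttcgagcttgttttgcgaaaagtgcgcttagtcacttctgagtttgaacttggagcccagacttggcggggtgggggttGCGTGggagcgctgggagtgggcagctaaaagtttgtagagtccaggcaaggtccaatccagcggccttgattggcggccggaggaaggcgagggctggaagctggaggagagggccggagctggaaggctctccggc
Tgfb1, chr7:25686752-25687001, plus strand: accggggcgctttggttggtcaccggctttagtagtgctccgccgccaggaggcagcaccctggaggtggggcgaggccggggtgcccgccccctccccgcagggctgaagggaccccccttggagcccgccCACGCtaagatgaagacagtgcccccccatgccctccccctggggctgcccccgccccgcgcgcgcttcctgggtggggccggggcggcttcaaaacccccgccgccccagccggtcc
The Tgfb2 window holds CACGTG, a palindrome in which ACGTG is read on both strands, so its 2 matches overlap; they begin 51 and 50 bases before the start. The Ltbp2 window holds 1 match to GCGTG, 37 bases before the start, and the Tgfbr2 window 1, at 138 bases. The window of Tgfb1, which did not pass the test, holds 1 match to GCGTG as well, at 118 bases, and the first of the Tgfbr1 windows holds 2. The first Ltbp1 window, of a gene that did not pass either, holds 1 match to ACGTG, 67 bases before the start. Of the 3 Ltbp4 windows the first holds no match. The other 2 overlap, lie inside the gene as annotated by GENCODE and hold the same 1 match to GCGTG. No match was found in the Ltbp3 window or in the second windows of Ltbp1 and Tgfbr1. Over all 32851 promoter windows of this length 16.6% hold ACGTG and 28.2% hold GCGTG. The median share of G and C bases over all windows was 52.4%. It was 53.6% in the window of Tgfb2, 61.6% in Ltbp2, 58.4% in Tgfbr2 and 75.2% in Tgfb1, and the background was not matched for it. A match of 5 letters is a description of the sequence and not evidence of binding. A search for CAGAC, the Smad binding element, gave 2 matches each in the Tgfb2 and Ltbp2 windows, 1 in the Tgfbr2 window and 0 in the Tgfb1 window, and 42.2% of all windows hold it. The letters TGANTCA (the AP-1 motif, in 6.75% of all windows) and GGAATG (the TEAD motif, in 12.6%) were not in these 4 windows.

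Levels below are the normalised signal as deposited, on the scale of reads in proportion to an effective library size. A fold change is a difference on the scale log2(signal + 1), tested with limma over all 13544 genes, and SD is over the libraries of a group. The libraries held 15028176 to 21202385 reads, and the effective size was 0.925 to 0.964 times the total in C, 1.36 to 1.37 times in KO and 0.705 to 1.06 times in DKO. Reads of the mitochondrial genome took 23.1% to 29.0% in C, 16.2% to 17.4% in KO and 22.9% to 41.6% in DKO, with DKO 2 the highest. Whole-gene Vhl was 7.26 to 8.97 in C, 8.33 and 8.96 in KO and 8.61 to 11.2 in DKO, with no call against C (limma, adjusted p = 0.71 in KO and 0.59 in DKO), so the whole-gene level gave no check of the labels. Cardiomyocyte markers were high in all libraries, with 10 of 10 detected. Whether each library is a different animal is not stated, and the p-values therefore reflect the spread among these libraries, which may be technical.

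**Figure D1:**
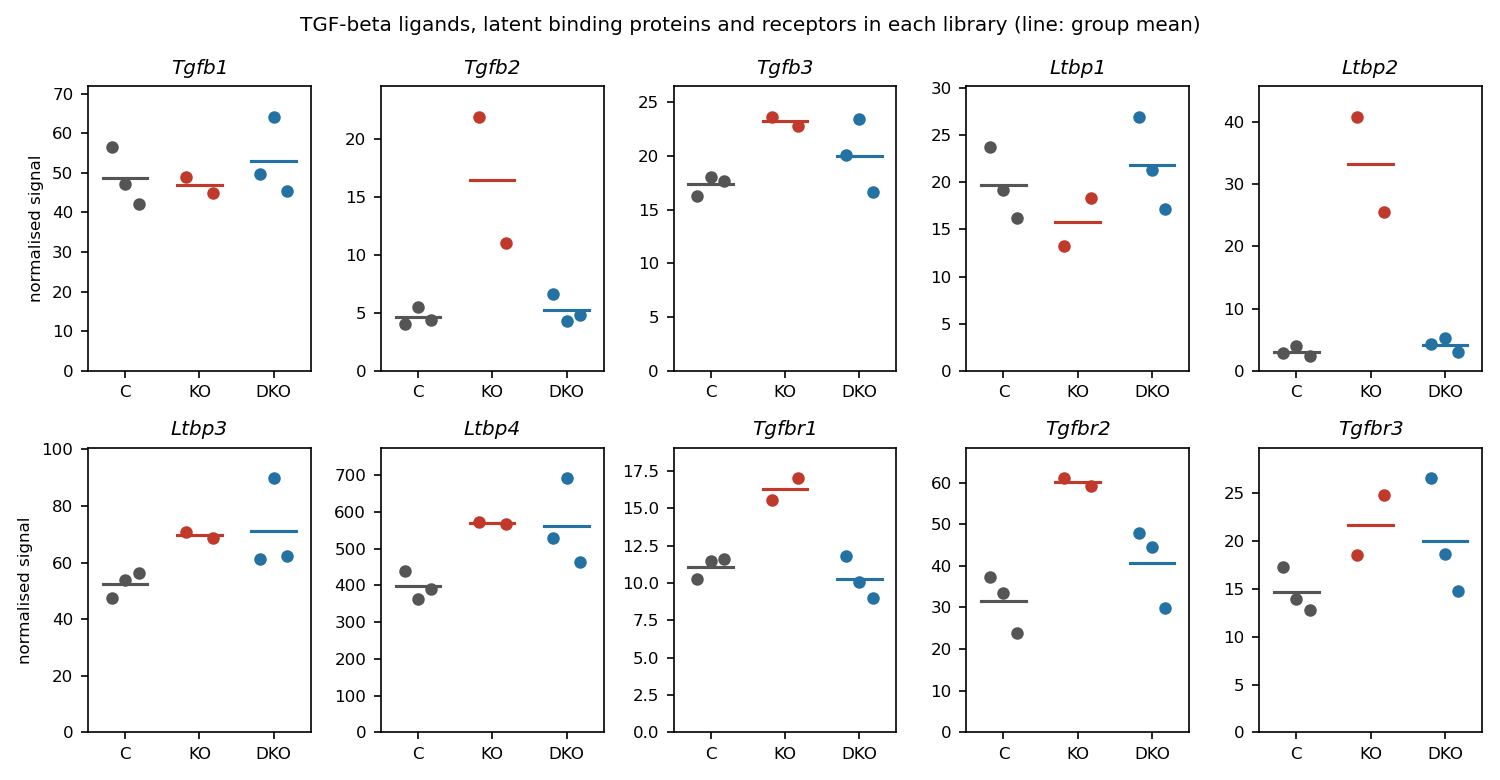
Normalised signal (vertical axes, from 0, scaled for each gene) of the 10 genes in the 8 libraries, grouped as C, KO and DKO; each point is 1 library and each line a group mean. Both KO libraries lie above all C libraries for 8 of the 10 genes, with the widest gaps for Ltbp2 and Tgfb2.

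Among the ligands, Tgfb2 (ENSMUSG00000039239, chromosome 1, 186622792 to 186705989, GRCm38) rose. It encodes TGF-beta 2, the ligand that needs betaglycan for efficient receptor binding and that is required for heart development. Its signal was 4.07, 5.51 and 4.42 in C 1, C 2 and C 3, and 21.9 and 11.0 in KO 1 and KO 3. The KO libraries lay above the C libraries but apart from each other. The DKO libraries, at 6.60, 4.29 and 4.81, overlapped with C and lay below both KO libraries. Group means were 4.67 ± 0.754 in C (SD, n = 3), 16.5 ± 7.71 in KO (SD, n = 2) and 5.23 ± 1.21 in DKO (SD, n = 3). KO exceeded C by 1.56 ± 0.27 (SE) on the log2 scale, or 2.94-fold (limma, adjusted p = 0.00362), and it was 1.09 without KO replicate 1 (limma, adjusted p = 0.0459). Between DKO and KO it fell by 1.43 ± 0.27 (SE) (limma, adjusted p = 0.0066), a call that ended without KO replicate 1 (adjusted p = 0.0804). An antisense gene on the other strand, Gm29491, shares 124 of its 5791 exon bases.

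Tgfb1 (ENSMUSG00000002603, chromosome 7, 25687002 to 25705077) encodes TGF-beta 1, the form made by many immune, endothelial and stromal cells and stored in platelets. Its signal was 56.5, 47.3 and 42.0 in C, 48.9 and 44.9 in KO and 49.6, 64.2 and 45.3 in DKO, so that all groups overlapped. On the log2 scale KO versus C gave -0.04 ± 0.19 (SE; limma, adjusted p = 0.908), and DKO versus C gave 0.12 ± 0.17 (SE; limma, adjusted p = 0.856). These differences are no larger than their errors, which does not show that the levels are equal.

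Tgfb3 (ENSMUSG00000021253, chromosome 12, 86056745 to 86079041) encodes TGF-beta 3, known for palate formation and for mesenchymal expression. Its signal was 16.3, 18.1 and 17.7 in C and 23.7 and 22.8 in KO. The KO libraries were above C, yet the difference of 0.40 ± 0.17 (SE) on the log2 scale did not pass (limma, adjusted p = 0.138). The DKO libraries, at 20.1, 23.5 and 16.6, spread across both other groups (limma, adjusted p = 0.74 against C and 0.432 against KO).

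Divided by the length of the longest annotated transcript, Tgfb1 was the main ligand transcript in every library. Tgfb2 made up 2.89%, 4.35% and 3.85% of the summed per-kilobase level of the 3 ligands in the C libraries, 14.1% and 8.17% in KO 1 and KO 3, and 4.86%, 2.56% and 4.01% in DKO. The mean share of Tgfb1 was 75.5% ± 3.60 in C (SD, n = 3), 64.5% ± 2.48 in KO (SD, n = 2) and 74.7% ± 1.78 in DKO (SD, n = 3). For both genes the KO shares did not overlap with C, and the two-sided exact permutation test gave p = 0.1, the smallest value that 3 against 2 libraries allow. The sum over the 3 ligands was 24.9 ± 2.57 per kilobase in C (SD, n = 3), 28.3 ± 2.79 in KO (SD, n = 2) and 27.6 ± 4.72 in DKO (SD, n = 3), with overlap between all groups.

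**Figure D2:**
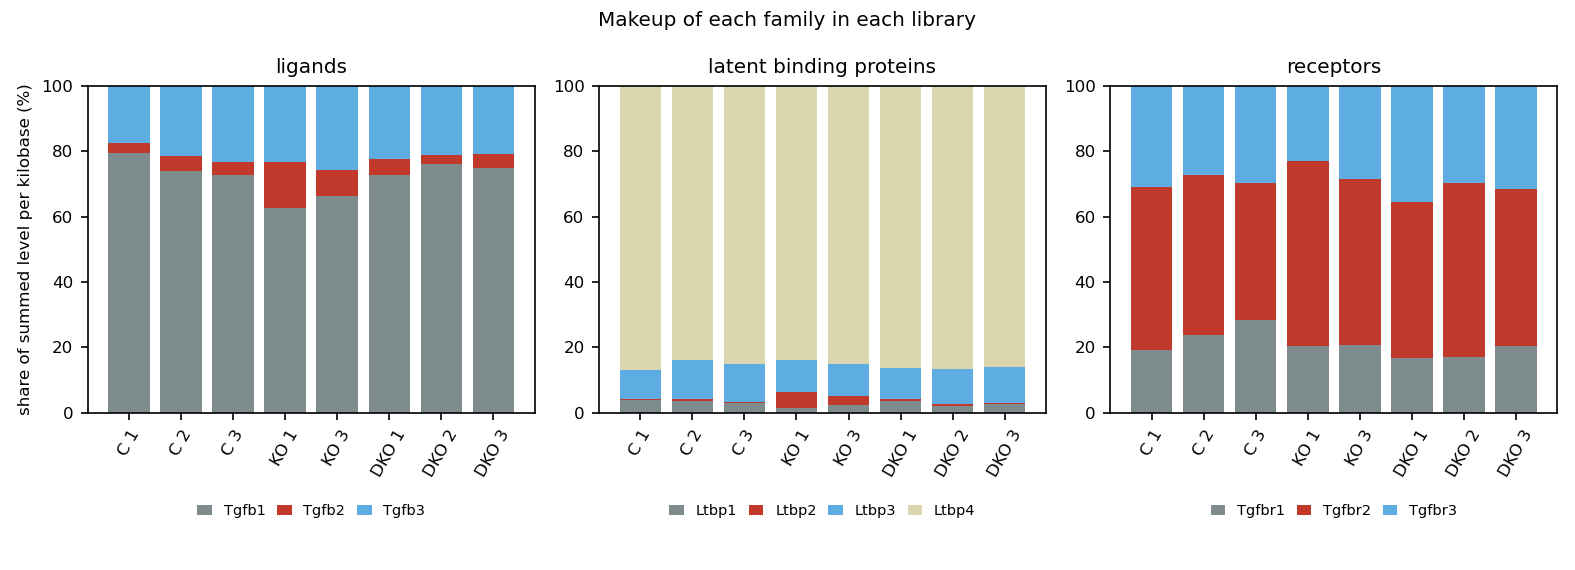
Share (percent, vertical axis) of each gene in the summed per-kilobase level of its family, for each of the 8 libraries (horizontal axis), as stacked bars for ligands, latent binding proteins and receptors. Tgfb2 takes 8.17% and 14.1% of the ligands in the KO libraries and at most 4.86% in the other 6, while Ltbp4 takes at least 83.9% of the latent binding proteins in all 8.

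Among the latent binding proteins Ltbp2 (ENSMUSG00000002020, chromosome 12, 84783212 to 84876532) rose, and Ltbp1, Ltbp3 and Ltbp4 did not pass. Ltbp2 differs from its relatives in that its protein does not bind the latent TGF-beta complex. It binds fibrillin-1 and fibulin-5 and takes part in microfibril and elastic fibre assembly. Its signal was 2.85, 3.95 and 2.32 in C, 40.8 and 25.5 in KO 1 and KO 3, and 4.30, 5.33 and 2.97 in DKO. Both KO libraries lay far above the other 6, and the DKO libraries overlapped with C. The KO value was 3.06 ± 0.26 (SE) above C on the log2 scale, or 8.36-fold (limma, adjusted p = 0.000106). Between DKO and KO it fell by 2.70 ± 0.26 (SE) (limma, adjusted p = 0.000209). Both calls held under all 20 alternative settings, with differences of 2.73 to 3.46 for KO versus C and of -3.03 to -2.38 for DKO versus KO, and limma, edgeR, DESeq2 and voom adjusted p of at most 0.00591. The smallest value rests on 37 reads and the largest on 1036. The antisense gene D030025P21Rik shares 764 of the 8184 exon bases of Ltbp2, and as the strand setting of the counting is not given in the sources used here, reads of the pair cannot be told apart there.

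Ltbp4 (ENSMUSG00000040488, chromosome 7, 27305136 to 27337692), whose protein carries latent TGF-beta 1 and guides elastic fibre assembly through fibulin-5, was the most abundant of the 10 in every library. Its signal was 439.5, 363.6 and 389.1 in C, 573.8 and 567.1 in KO and 528.4, 692.2 and 463.2 in DKO. All KO and DKO libraries were above all C libraries, but neither difference passed. It was 0.52 ± 0.21 (SE) on the log2 scale for KO (limma, adjusted p = 0.124) and 0.48 ± 0.19 (SE) for DKO (limma, adjusted p = 0.577). The difference between KO and C passed without DKO replicate 2 (limma, adjusted p = 0.0192), with C and KO fitted alone (0.0131) and with DESeq2 on recovered reads (0.0392). With quantile normalisation it was 0.94 and passed as well (limma, adjusted p = 0.0297).

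Ltbp3 (ENSMUSG00000024940, chromosome 19, 5740904 to 5758532), another carrier of latent TGF-beta, likewise had all KO and DKO libraries above C. It was 47.4, 54.0 and 56.3 in C, 70.8 and 68.7 in KO and 61.3, 89.9 and 62.5 in DKO. Its differences from C were 0.40 ± 0.19 (SE) in KO (limma, adjusted p = 0.173, and 0.0364 without DKO replicate 2) and 0.41 ± 0.17 (SE) in DKO (limma, adjusted p = 0.579). Ltbp3 and Ltbp4 were the genes of the 10 whose DKO libraries did not overlap with C, which 6.50% of all tested genes showed in the higher direction and 7.25% in the lower.

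Ltbp1 (ENSMUSG00000001870, chromosome 17, 75005568 to 75392512) encodes the classical carrier of latent TGF-beta and is needed for the outflow tract. Its signal was 23.7, 19.1 and 16.2 in C, 13.2 and 18.4 in KO and 27.0, 21.3 and 17.1 in DKO. The groups overlapped, and on the log2 scale KO versus C gave -0.30 ± 0.22 (SE; limma, adjusted p = 0.405). Its share of the summed per-kilobase level of the 4 genes was 3.41% ± 0.483 in C (SD, n = 3) and 1.89% ± 0.465 in KO (SD, n = 2), where the share of Ltbp2 was 0.526% ± 0.174 in C (SD, n = 3) and 3.90% ± 1.21 in KO (SD, n = 2). In both KO libraries Ltbp2 thus had a higher level per kilobase than Ltbp1, and in the other 6 a lower one. Since Ltbp4 dominates, the sum of the 4 genes was 86.4 ± 6.85 per kilobase in C (SD, n = 3), 125.3 ± 2.20 in KO (SD, n = 2) and 120.5 ± 24.9 in DKO (SD, n = 3).

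Among the receptors Tgfbr2 (ENSMUSG00000032440, chromosome 9, 116084293 to 116175360), the gene of the ligand-binding type II receptor kinase, rose in KO. Its signal was 37.3, 33.4 and 23.9 in C, 61.1 and 59.3 in KO and 47.9, 44.6 and 29.8 in DKO. The KO libraries were close to each other and above the other 6, and DKO overlapped with C. KO exceeded C by 0.93 ± 0.23 (SE) on the log2 scale, or 1.91-fold (limma, adjusted p = 0.0188). The call ended without C replicate 3 (adjusted p = 0.0735), KO replicate 1 (0.108) or KO replicate 3 (0.117). The difference between DKO and KO was -0.58 ± 0.23 (SE) and did not pass (limma, adjusted p = 0.118), nor did that between DKO and C, at 0.36 ± 0.20 (SE) (limma, adjusted p = 0.64).

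Tgfbr1 (ENSMUSG00000007613, chromosome 4, 47353222 to 47414931), the gene of the type I receptor ALK5, was 10.3, 11.5 and 11.6 in C, 15.6 and 17.0 in KO and 11.8, 10.1 and 9.02 in DKO. The KO libraries were above all others. The difference between KO and C, 0.52 ± 0.17 (SE) on the log2 scale, did not pass (limma, adjusted p = 0.0599). It passed with edgeR (adjusted p = 0.0495) and voom (0.0458) on recovered reads, with C and KO fitted alone (limma, adjusted p = 0.0204), without DKO replicate 2 (limma, adjusted p = 0.0386) and without DKO replicate 3 (limma, adjusted p = 0.046). Between DKO and KO it fell by 0.62 ± 0.17 (SE) (limma, adjusted p = 0.033). That call ended without any one of the C libraries (adjusted p = 0.054 to 0.0602), DKO replicate 3 (0.0662), KO replicate 1 (0.116) or KO replicate 3 (0.226), with the length and GC trend removed (0.0547), with a fit of the 2 groups alone (0.104) and with the replicate block (0.0674).

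Tgfbr3 (ENSMUSG00000029287, chromosome 5, 107106570 to 107289629), the gene of betaglycan, was 17.3, 14.0 and 12.8 in C, 18.6 and 24.8 in KO and 26.6, 18.6 and 14.8 in DKO. The KO libraries lay above C and the DKO libraries spread over both. Its differences from C, 0.53 ± 0.24 (SE) in KO (limma, adjusted p = 0.157) and 0.39 ± 0.21 (SE) in DKO (limma, adjusted p = 0.62), did not pass. The summed per-kilobase level of the 3 receptor genes was 7.06 to 9.23 in C, 13.3 and 14.4 in KO and 7.67 to 12.3 in DKO, so both KO libraries were above the other 6. The share of Tgfbr2 was 46.9% ± 4.46 in C (SD, n = 3) and 53.9% ± 4.06 in KO (SD, n = 2), with p = 0.2 in the exact permutation test.

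**Figure D3:**
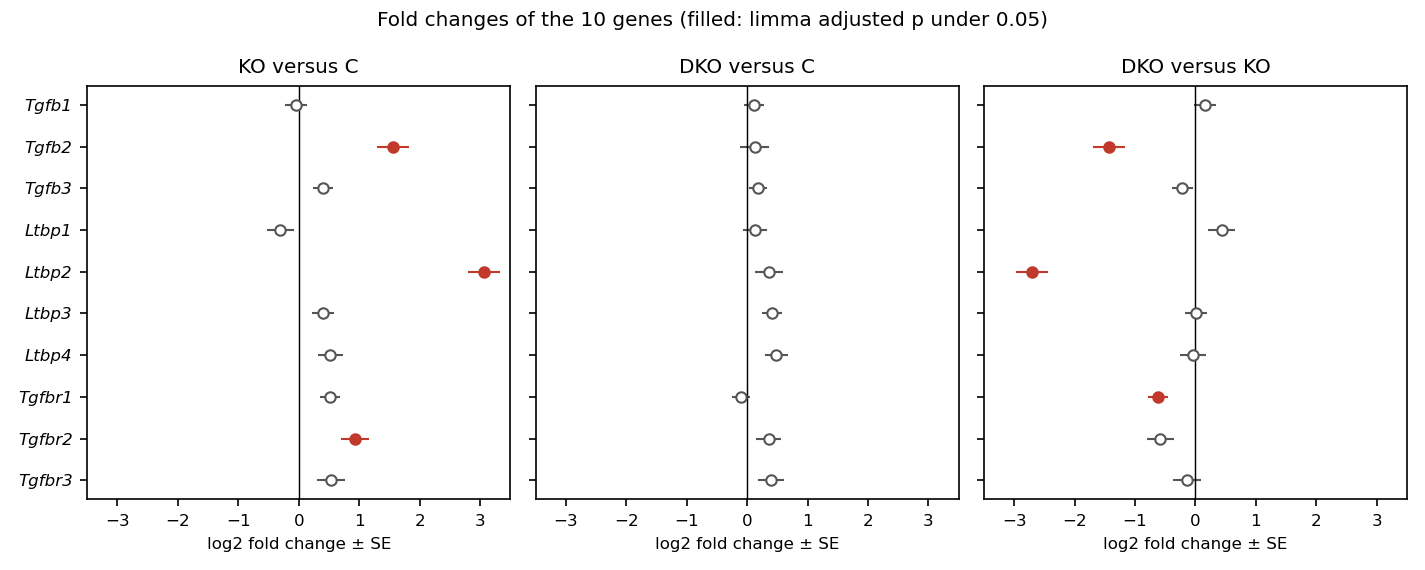
Log2 fold change of each of the 10 genes with its standard error (horizontal axis) in KO versus C, DKO versus C and DKO versus KO; filled points have a limma adjusted p under 0.05. Ltbp2, Tgfb2 and Tgfbr2 are filled in KO versus C, none in DKO versus C, and Ltbp2, Tgfb2 and Tgfbr1 in DKO versus KO.

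Over the 10 genes the median log2 difference was 0.52 in KO versus C, beside 0.01 over all tested genes. It was 0.27 in DKO versus C, beside 0.01, and -0.18 in DKO versus KO, beside 0.01. Both KO libraries lay above all C libraries for 8 of the 10 genes, as 27.5% of all tested genes did, and below them for none, as 26.7% did. The exceptions were Tgfb1 and Ltbp1. All DKO libraries lay below both KO libraries for 4 of the 10 (Tgfb2, Ltbp2, Tgfbr1 and Tgfbr2), as 21.1% of all tested genes did, and above both for none, as 20.5% did. At an unadjusted p under 0.05 in limma, 7 of the 10 genes differed between KO and C, where 29.1% of all tested genes did. In DKO versus C 2 of the 10 did (Ltbp3 and Ltbp4), where 8.50% of all genes did, and in DKO versus KO 4 of the 10, where 28.9% did. The last 2 of these counts are not far from the share over all genes. The count of calls in DKO versus C was 0 under every alternative, edgeR and DESeq2 included. The count of 3 in KO versus C was 6 without DKO replicate 2, the library with the most mitochondrial reads, and 8 when C and KO were fitted without DKO; all were higher in KO. It was 2 without C replicate 3, KO replicate 1 or KO replicate 3.

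Ranked by level per kilobase in C, the order was Ltbp4 (73.8 ± 7.17), Tgfb1 (18.9 ± 2.84), Ltbp3 (9.18 ± 0.812), Tgfb3 (5.13 ± 0.271), Tgfbr2 (3.90 ± 0.853), Ltbp1 (2.95 ± 0.567), Tgfbr3 (2.41 ± 0.386), Tgfbr1 (1.93 ± 0.128), Tgfb2 (0.912 ± 0.147) and Ltbp2 (0.449 ± 0.123; SD, n = 3 for each). Of these neighbours Tgfbr2 and Ltbp1, and Ltbp1 and Tgfbr3, overlapped between libraries. In KO Ltbp2 (4.90 ± 1.60; SD, n = 2) moved from rank 10 to rank 6, behind Tgfb3 (6.87 ± 0.185) and ahead of Tgfbr3 (3.56 ± 0.725), with which it overlapped. The libraries of the genes from rank 6 to rank 10 in KO overlapped with their neighbours, so Tgfb2 (3.22 ± 1.51), Tgfbr1 (2.83 ± 0.181) and Ltbp1 (2.37 ± 0.542) had no firm order there. In DKO the first 3 and the last 3 places were as in C, with Tgfb2 at 1.02 ± 0.236 and Ltbp2 at 0.620 ± 0.175 (SD, n = 3).

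The genes with the pattern most like that of the risen members were found among 6622 named genes at or above the median level, by the root mean square difference of log2(signal + 1), taken against the mean of C, over the 8 libraries. For Ltbp2 they were Postn, the gene of the matrix protein periostin, at 0.14, Loxl2, a lysyl oxidase gene, at 0.37 and the collagen gene Col14a1, also at 0.37. Postn was 23.8, 29.1 and 14.7 in C, 209.9 and 155.4 in KO and 28.3, 36.7 and 20.5 in DKO. For Tgfb2 they were Ier3 (0.23), an immediate early gene, Aspn (0.24), the gene of asporin, a small proteoglycan that binds TGF-beta, and Bhlhe41 (0.26), a transcriptional repressor gene of the circadian clock. In each of these KO 1 was above KO 3, as in Tgfb2, with Aspn at 53.3 and 30.4. For Tgfbr2 they were Mmp2, a gelatinase gene, and the collagen gene Col6a2, at 0.10 each, and F2r, the thrombin receptor gene, at 0.13. For the ligands without a call the nearest genes were Cdc42ep2, Arhgef3 and Ptms (Tgfb1) and Myh10, Eps15 and Zfp36l2 (Tgfb3). These likenesses are a description over 8 libraries that share groups and depth.

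**Figure D4:**
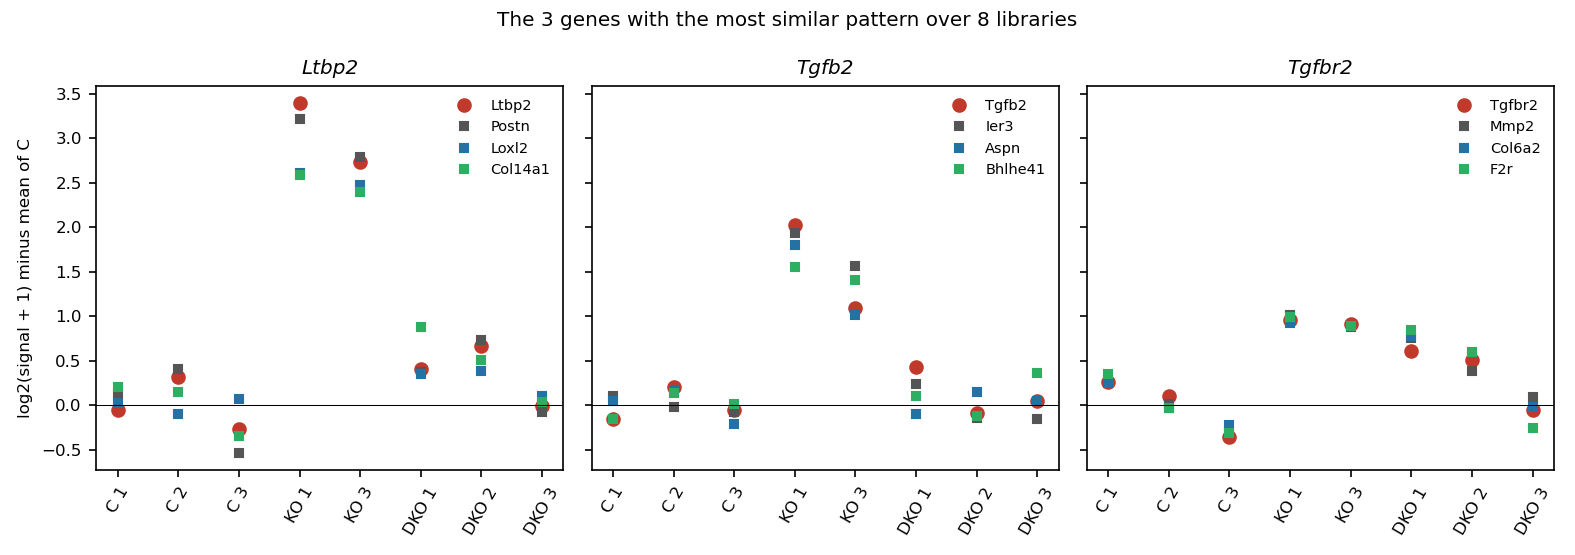
Log2(signal + 1) minus the mean of C (vertical axis) in the 8 libraries (horizontal axis) for Ltbp2, Tgfb2 and Tgfbr2 (circles) and the 3 genes with the smallest root mean square difference from each (squares). Postn lies within 0.14 of Ltbp2 by that measure, and the DKO points stay near C for Ltbp2 and Tgfb2.

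Of 74 tested genes in 7 lists of other parts of the pathway, 31 rose in KO and 0 fell, with a median log2 difference of 0.56, where 6.90% of all tested genes were called higher and 7.01% lower. In DKO versus C none passed, with a median log2 difference of 0.21 beside 0.01 over all tested genes. In DKO versus KO 24 were lower and 1 higher, where 5.73% of all genes were called lower and 6.08% higher. The count of 31 was 19 without C replicate 3, 17 without KO replicate 1 and 13 without KO replicate 3. The lists, like the 10 genes, were drawn up with earlier results of these data known.

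Of 10 genes for the anchoring of the latent complex and for matrix partners, 7 rose in KO (Fbn1, Fn1, Eln, Emilin1, Fbln5, Adamtsl2 and Lrrc32) and 0 fell. Adamtsl2, whose protein binds LTBP1 and fibrillin-1, was 15.2, 14.7 and 12.3 in C and reached 44.6 and 53.3 in KO (limma, adjusted p = 0.00245). Fn1, the gene of fibronectin, was 36.0 ± 4.68 in C (SD, n = 3) and 97.7 ± 15.3 in KO (SD, n = 2; limma, adjusted p = 0.00308, and 0.0523 without KO replicate 3). Of 15 tested genes for activation and processing 6 rose (Itgb1, Itgb3, Thbs1, Mmp2, Mmp14 and Furin) and 0 fell. Thbs1, the gene of thrombospondin 1, which can activate latent TGF-beta, was 5.42, 7.20 and 3.24 in C, 33.2 and 16.9 in KO and 14.0, 12.1 and 4.35 in DKO. Its rise in KO (limma, adjusted p = 0.00904) ended as a call without KO replicate 1 (adjusted p = 0.105). Itgb6 and Itgb8, whose integrins release TGF-beta from its propeptide, had log2 differences of 0.33 (limma, adjusted p = 0.347) and 0.03 (limma, adjusted p = 0.966) and did not pass.

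Of 6 small proteoglycan and protease genes that restrain TGF-beta outside the cell, Aspn and Bgn rose in KO. Bgn, the gene of biglycan, was 143.2 ± 25.9 in C (SD, n = 3) and 361.7 ± 0.885 in KO (SD, n = 2; limma, adjusted p = 0.00407). Of 8 co-receptor and related receptor genes only Bmpr1a, a type I receptor gene for bone morphogenetic proteins, passed, with a log2 difference of 0.83 (limma, adjusted p = 0.0145). A count of 1 in 8 is near the 6.90% of all genes called higher. That call ended without C replicate 3 (adjusted p = 0.0567), KO replicate 1 (0.0728) or KO replicate 3 (0.121).

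Of 8 Smad genes the inhibitory Smad6 and Smad7 rose in KO, and the receptor-activated Smad2 and Smad3 and the shared Smad4 did not pass. Smad7 was 14.0, 15.5 and 15.1 in C, 29.6 and 42.7 in KO and 18.6, 18.3 and 10.9 in DKO (limma, adjusted p = 0.00642 for KO versus C, and 0.102 without KO replicate 3). Of 11 genes for inhibitors inside the cell 4 rose (Smurf2, Ski, Skil and Pmepa1) and 0 fell. Pmepa1, which encodes a membrane protein that sequesters Smad2 and Smad3 and is itself induced by TGF-beta, was 28.7, 29.1 and 25.4 in C, 53.1 and 49.4 in KO and 27.4, 28.0 and 27.6 in DKO. Its KO libraries stood clear of the other 6 (limma, adjusted p = 0.00328).

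Of 16 tested genes known as targets of the pathway 9 rose in KO, among them Ccn2, Col1a1, Col1a2, Col3a1, Col5a1, Postn, Cilp and Comp, and 0 fell, with a median log2 difference of 1.29. In DKO versus KO 10 were lower, and in DKO versus C none passed. Col1a1, a gene of type I collagen, was 63.5 ± 7.53 in C (SD, n = 3), 243.7 ± 20.3 in KO (SD, n = 2) and 98.5 ± 38.8 in DKO (SD, n = 3), with a rise of 1.93 on the log2 scale in KO (limma, adjusted p = 0.00199). Acta2 and Tagln, smooth muscle genes that TGF-beta induces in myofibroblasts, had log2 differences of 0.21 (limma, adjusted p = 0.574) and 0.31 (limma, adjusted p = 0.656) and did not pass. Col1a1 and Col3a1 are in the list of fibroblast markers as well.

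**Figure D5:**
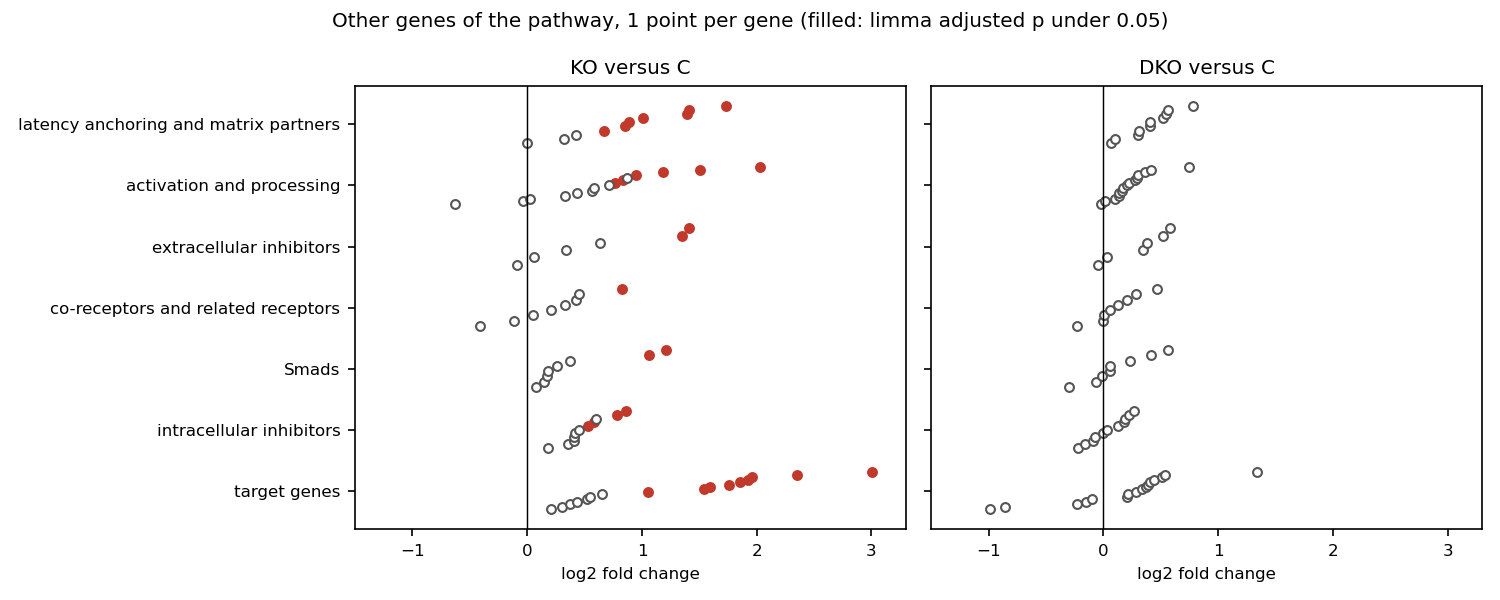
Log2 fold change (horizontal axis) of 74 other pathway genes in 7 lists, 1 point per gene, in KO versus C and in DKO versus C; filled points have a limma adjusted p under 0.05. In KO versus C 31 points are filled, all to the right of 0, and none is filled in DKO versus C.

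In tissue RNA a change in the number of cells of a type and a change in RNA per cell cannot be told apart. Marker genes of other cell types were read in the same libraries, against the 6.90% of all genes called higher and 7.01% called lower in KO versus C. Of 10 fibroblast markers 4 rose in KO (Col1a1, Col3a1, Mfap5 and Thy1) and 0 fell, with a summed signal of 948.1 to 1568 in C, 1366 to 1751 in KO and 1118 to 2861 in DKO. Gsn alone gave the largest part of every one of these sums, with 1135 for C 1 and 2201 for DKO 1. Between KO and C the log2 difference of Gsn was negative, at -0.34 (limma, adjusted p = 0.604). Those of Dpt (-0.46) and Ddr2 (-0.17) were negative too, and that of Lum was 0.63, all without a call (limma, adjusted p = 0.284, 0.639 and 0.218). The fibroblast genes Pdgfra, at 21.7 ± 2.43 in C (SD, n = 3) and 16.9 ± 0.965 in KO (SD, n = 2; limma, adjusted p = 0.28), and Tcf21, at 5.56 ± 1.95 in C against 10.2 ± 3.08 in KO (limma, adjusted p = 0.118), did not pass. Of 7 detected epicardial markers 4 rose in KO (Wt1, Krt19, Aldh1a2 and Sulf1), with a sum of 19.2 to 23.8 in C, 59.2 to 61.9 in KO and 21.8 to 37.2 in DKO. Sulf1 alone was 11.1 ± 1.96 in C (SD, n = 3) and 30.0 ± 3.39 in KO (SD, n = 2). The epicardial markers Tbx18, Msln and Upk3b did not pass (limma, adjusted p = 0.335, 0.792 and 0.771), and Upk3b had a log2 difference of -0.22. Upk1b, Bnc1 and Krt8 were not among the deposited genes. Of 10 markers each, 2 macrophage genes (Cd14 and C1qb) and 1 mural cell gene (Cspg4) rose, and 1 endothelial (Cldn5) and 1 cardiomyocyte gene (Tnni3) fell; 1 of 10 is close to the share over all genes. The sums of mural cell markers were 670.5 to 794.4 in C, 868.1 to 951.9 in KO and 698.2 to 1031 in DKO. Those of macrophage markers were 324.5 to 359.3 in C, 459.1 to 465.4 in KO and 368.8 to 468.02 in DKO, so that both KO and DKO lay above C. Endothelial markers summed to 969.96 to 1357 in C, 1004 to 1069 in KO and 879.4 to 1574 in DKO, and the groups overlapped. Cardiomyocyte markers summed to 62695 to 66105 in C, 38788 to 43383 in KO and 38141 to 62626 in DKO. The sums of both KO libraries were thus below C, while that of the highest DKO library lay only just under the lowest C library. Myh6 was the largest part of each sum, at 23288.5 ± 1509 in C (SD, n = 3) and 12651.4 ± 2233 in KO (SD, n = 2). Both KO libraries were below all C libraries for Myh6, Tnnt2, Tnni3, Myl2, Myl3, Pln and Myom1, as 26.7% of all tested genes were. They were above all C libraries for Actc1 and Ttn, as 27.5% were, and overlapped with C for Ryr2. No cardiomyocyte marker was called in DKO versus C. Of 9 tested immediate early genes, which respond to stress and handling, 3 rose in KO (Fos, Jun and Ier3) and 3 in DKO (Fos, Fosb and Nr4a1), where 0.0738% of all genes were called higher in DKO. Their sum was 109.9 to 150.3 in C, 203.7 to 261.3 in KO and 234.8 to 434.2 in DKO. Ier3, also the gene nearest in pattern to Tgfb2, did not follow Fos, Fosb and Egr1. It was 15.4 ± 1.03 in C (SD, n = 3), 54.3 ± 9.90 in KO (SD, n = 2) and 15.3 ± 2.61 in DKO (SD, n = 3). In DKO versus KO Ier3 was called lower and Fos, Fosb and Egr1 higher. Of all genes 5.73% were called lower and 6.08% higher there. Of 10 skeletal muscle markers 9 were lower in KO and 8 in DKO than in C, where 0.0812% of all genes were called lower in DKO. Myh4 had 0 reads in both KO libraries and varied widely in C, at 66.5, 17.4 and 127.6. The sum over the 10 skeletal muscle markers was 552.3 to 1007 in C, 1565 to 2395 in KO and 73.8 to 867.8 in DKO. Acta1 made up nearly all of it in KO, at 2393 in KO 1 and 1564 in KO 3. The part of these differences in the levels of the 10 genes was not tested.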

How the data were processed

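Poly(A) RNA of 8 ventricular samples was sequenced, per the labels. Tools in the submitters' processing notes are cutadapt, limma and RSEM 1.3.1, with the build GRCm38. Which annotation and strand setting were used is not given here. The deposited values are a normalised signal. Each equals whole reads plus a constant over an effective library size, as read from the values: 100% of values gave whole reads, within a tolerance of 0.001. RSEM estimates can split reads between close paralogs.

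Genes that reached a signal of 1 in 2 or more libraries (13544) entered limma 3.58.1 (R 4.3.3) on log2(signal + 1), with 3 group means over 8 libraries, 5 residual degrees of freedom and a variance trend. Benjamini-Hochberg adjustment ran over all tested genes, with a threshold of 0.05. This scale understates changes of low genes. On recovered reads the edgeR 4.0.16 quasi-likelihood test called 2045 genes in KO versus C, 25 in DKO versus C and 1692 in DKO versus KO; DESeq2 1.42.0 and voom were further alternatives, with other pseudocounts, filters, scalings, a replicate block, fits of 2 groups and each library left out. The test scripts were tested on simulated data. In KO versus C they recovered 48% of genes with a simulated log2 change of 1 and 89% of those with 2. A missing call for a smaller difference therefore does not show an equal level. Positions and lengths are those of GENCODE M21 on GRCm38, where 13666 of 13677 identifiers matched.

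The members and lists were chosen with earlier results of these data known. Named are all members, up to 4 called genes of each pathway list with the largest change, and the 3 genes nearest in pattern to the ligands and to members called in KO versus C. The text gives a part of these, and some are not reported here. Genes named outside this rule, such as Lrrc32, Itgb6, Itgb8, Acta2, Tagln, Smad2, Smad3, Smad4 and the markers, were chosen after their values were seen. The KO libraries are numbered 1 and 3, and a number 2 was not analysed here. A chi-square test of the recovered reads within groups gave 13.6 to 253.0 per gene, above sampling noise, and no library was treated as a copy.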

Additional observations from a re-analysis of the deposited data

How the results depend on the processing

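With 2 or 3 libraries a group, single libraries moved the counts. The members called higher in KO versus C, 3 as reported, numbered 8 with only the 2 groups compared and 2 to 6 with 1 library left out; those lower in DKO versus KO, 3 as reported, numbered 1 to 3. No member was called in DKO versus C under any of the 20 alternatives.

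Pathway genes higher in KO versus C numbered 13 to 37 with 1 library left out, and 1 was lower with edgeR, DESeq2 or voom. In DKO versus C 1 pathway gene was higher and 2 were lower with DESeq2, and 0 to 3 were higher and 0 to 1 lower with 1 library left out. In DKO versus KO pathway genes lower numbered 11 with the 2 groups alone and 7 to 26 with 1 library left out; the 1 higher gene, Mmp9, was lost (0 genes) with a minimum of 1 in all 8 libraries, the 2 groups alone, or C replicate 1 or 2 or either KO library left out. Without division by length the share of Tgfb2 averaged 6.66% in C, 18.6% in KO and 6.84% in DKO, and that of Ltbp2 in DKO 0.632%.

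Some differences without a call changed sign. Tgfb1 in KO versus C was 0.022 with the replicate block and -0.14 to 0.069 with 1 library left out. With 1 library left out of DKO versus C, Tgfb1 was -0.025 to 0.23, Tgfb2 -0.023 to 0.24 and Ltbp1 -0.026 to 0.29. In DKO versus KO, Ltbp3 was -0.047 with the length and GC trend removed and -0.092 with the block. With 1 library left out there, Ltbp3 was -0.17 to 0.10, Ltbp4 -0.20 to 0.084 and Tgfbr3 -0.35 to 0.064. The cause was not tested.

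Same-numbered libraries did not deviate together throughout (correlations -0.27 to 0.22), so the numbers were not taken as pairs. With the replicate block 1794 genes were called in KO versus C (1883 without), 21 in DKO versus C (21) and 1269 in DKO versus KO (1599), where 0 pathway genes were higher and the call of Tgfbr1 ended (adjusted p = 0.0674).

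Over all genes, the 1883 calls in KO versus C were 3606 with the 2 groups alone, and 899, 1048 and 985 without C replicate 1, 2 and 3, 783 and 449 without KO replicate 1 and 3, and 2966 without DKO replicate 2. The 21 calls in DKO versus C were 69 with DESeq2, 7 with voom, 11 with a minimum of 1 in all 8 libraries, and 4, 12, 14 and 90 without C replicate 1, C replicate 3, DKO replicate 2 and DKO replicate 3. The 1599 calls in DKO versus KO were 730 with the 2 groups alone, and 603 and 334 without KO replicate 1 and 3.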
